A study of Mus musculus with 8 samples.

Results

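Proteins of the mitochondrial import machinery were followed at the level of their mRNAs in *iMLL-AF9* cells treated with the PHD inhibitor IOX5. The genes were taken by symbol from the annotation of the counted genes, as protein-coding genes named *Timm* or *Tomm* with a number, *Samm50*, *Mtx1*, *Mtx2*, *Pam16*, *Grpel1*, *Grpel2*, *Pmpca* and *Pmpcb*. This rule uses no measured value and found 33 of the 54838 genes in the count tables. The cells are mouse bone marrow cells labelled as leukemic stem cells of wild-type genotype, and all 8 samples carry the doxycycline-inducible *MLL-AF9* fusion oncogene. Of these, 4 samples were treated with DMSO, the solvent control, and 4 with IOX5, an inhibitor of the prolyl hydroxylases that mark HIF-α for degradation, and samples were numbered 1 to 4 in each group. The study's methods give an IOX5 concentration for cultures and an age range for mice in general, but neither these, nor how long cells were treated, are tied to these samples in the sources used here. Nothing states whether the samples of a group came from separate cultures or animals, so that p-values measure only the spread between these samples, which may be technical. Between 11351507 and 14116054 reads were counted on genes per sample.

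All 9 progenitor markers, those nearest the labelled cell type, had reads. *Flt3* among them was near the floor, at 1.40 CPM on average with DMSO and 2.78 CPM with IOX5. The summed level of 9 progenitor markers was 2659, 2287, 4702 and 4509 CPM with DMSO and 3032, 2591, 5448 and 5415 CPM with IOX5 in replicates 1 to 4, with *Mpo*, a myeloid granule enzyme, as the most abundant gene. In this sum, numbers 3 and 4 were above numbers 1 and 2 in both groups. The samples thus differed along the replicate numbers as well as by treatment. *Mpo*, *Cd34*, *Kit* and *Flt3* had this order, *Hoxa10*, *Meis1* and *Ptprc* the reverse, and *Hoxa9* and *Myb* were mixed. The 9 granulocyte markers summed to 3434, 3820, 4161 and 3729 CPM with DMSO and 3903, 4841, 4478 and 4503 CPM with IOX5. The 6 T cell markers summed to at most 0.260 CPM in any sample and 3 of them were at 0 reads throughout, and the 5 B cell markers summed to at most 8.63 CPM. The 7 mast cell and basophil markers, led by *Mcpt8*, summed to 269.6, 187, 712 and 645 CPM with DMSO and 329, 359, 1082 and 878 CPM with IOX5, with numbers 3 and 4 again above 1 and 2. With the replicate number as a block, all 7 of these markers were also higher with IOX5, as were 7 of 9 granulocyte markers (edgeR, adjusted p under 0.05). Without it 0 of either list passed. At an unadjusted p under 0.05, 1 granulocyte marker and 0 mast cell markers were higher, against 8.98% of all genes. With the trend on gene length and GC content removed as well, 6 mast cell and 3 granulocyte markers (*S100a9*, *Ngp* and *Ly6g*) passed. In that fit 10.1% of all genes were higher. The block also called 5 of 9 progenitor markers higher, 4 of 7 tested macrophage markers higher and 1 lower (*Fcgr1*, log2 fold change -0.87 without the block), 2 of 4 tested erythroid and 4 of 5 tested megakaryocyte markers higher, where 11.2% of all genes were higher and 9.43% lower. The call of *Mpo* was lost with the trend removed (edgeR adjusted p = 0.0196, and 0.0572). The mean summed level was 284 CPM with DMSO and 443 CPM with IOX5 for 8 macrophage markers, led by *Csf1r* and highest in IOX5 replicate 2 at 719.8 CPM, 16.3 and 29.1 CPM for 7 erythroid markers, led by *Hbb-bt*, and 56.8 and 110.7 CPM for 6 megakaryocyte markers, led by *Itga2b*, of which *Vwf* was called higher without the block. Of 6 markers of stroma and endothelium, 5 were under 1 CPM and *Pecam1* made up most of a sum of 144 and 191 CPM. *Pecam1*, 1 of 2 tested there, was higher with the block (log2 fold change 0.43, edgeR adjusted p = 0.00134). In bulk samples, fewer cells of a type and less RNA per cell cannot be told apart, and the part of these markers in the values of the import genes was not tested.

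Nearly all mitochondrial proteins are made in the cytosol and imported. They pass the outer membrane through the TOM complex. From there the SAM complex inserts barrel-shaped proteins into the outer membrane, the small TIM chaperones carry hydrophobic precursors across the intermembrane space, the TIM22 complex inserts metabolite carriers into the inner membrane, and the TIM23 complex takes proteins with a presequence into the matrix, pulled by the PAM motor, where the processing peptidase MPP cuts the presequence off. HIF-1 is known for lowering mitochondrial respiration and for promoting mitophagy, the removal of mitochondria by autophagy.

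Of the 33 genes, 30 had enough reads to be tested. *Tomm20l* and *Timm8a2*, both related to genes that were well expressed, had 1 read each in all 8 samples together, and a count of this size allows no statement beyond very low expression. *Tomm6*, a small TOM subunit, had 41 reads in all 8 samples, but 75.95% of its exon bases are shared with the annotated read-through gene *Gm21981* on the same strand, and HTSeq sets aside reads that fit both, which leaves its true level unknown. The other overlaps were mostly on the opposite strand. The largest was that of *Tomm40l*, 64.3% of whose exon bases lie opposite *Nr1i3*, with 4457 reads counted for *Tomm40l* and 9 for *Nr1i3*.

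Per kilobase of exon, the levels in the DMSO samples were highest for the small TOM subunit *Tomm7* (92.7 ± 3.38 CPM per kb, SD, n = 4) and for the TOM receptor *Tomm22* (86.9 ± 6.53), which did not differ beyond their spread. The small TIM chaperones *Timm8b* (74.1 ± 3.84) and *Timm13* (73.1 ± 5.89) and the TIM23 channel subunit *Timm23* (61.6 ± 3.65) came next. The channel of the TOM complex, *Tomm40*, stood at 35.6 ± 1.46 CPM per kb, and did not differ beyond its spread from the receptor *Tomm20* at 33.7 ± 1.80. The SAM core *Samm50*, at 31.2 ± 1.32, was below *Tomm40* in every DMSO sample. At the low end of the tested genes were *Pam16* (6.05 ± 0.445), *Grpel2* (5.68 ± 0.455) and *Timm10b* (2.54 ± 0.286). These levels divide by the merged exons of all annotated transcripts, which lowers genes with long or rarely used exons, such as *Timm17a* with 7893 bases.

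**Figure D1:**
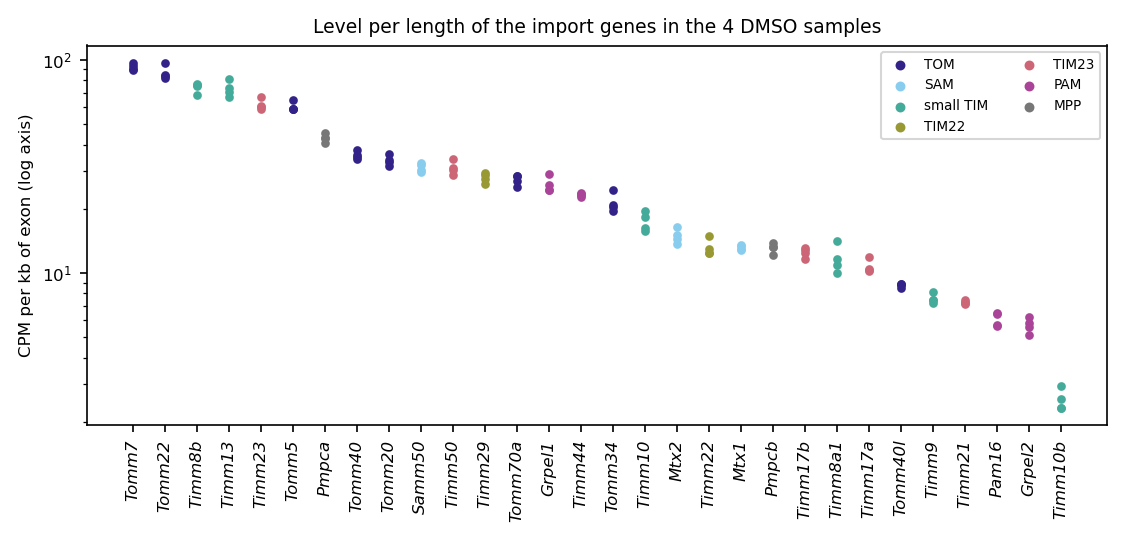
Level of the 30 tested import genes in the 4 DMSO samples, as CPM per kb of merged exon on a log axis, 1 point per sample, colored by translocase. *Tomm7* is highest at 92.7 and *Timm10b* lowest at 2.54 CPM per kb on average.

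Most import genes had lower values with IOX5, but the differences were small and none was called in the comparison without a block. By edgeR's quasi-likelihood test with Benjamini-Hochberg adjustment over 12405 genes, 0 of the 30 genes passed an adjusted p of 0.05 in either direction, while 0.774% of all genes tested were called higher and 1.25% lower (96 and 155 genes; 101 and 108 with upper-quartile factors, 79 and 201 with the trend on gene length and GC content removed). At an unadjusted p under 0.05, 1 import gene was higher and 7 were lower, against 8.98% and 11.2% of all genes. Limma voom with sample weights called 1 lower (*Tomm40*), against 4.92% of all genes. The median log2 fold change of the 30 genes was -0.13, against 0.017 for all genes tested. It was below 0 for 24 of the 30 genes, against 47.2% of all genes tested. With RLE or upper-quartile factors 24 genes were below 0, and with the trend on length and GC content removed 27 were.

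The deviations from the group means went together in samples of 1 number, so the fit with the number as a block is given beside the first. With the block, 1 import gene was higher, *Tomm7*, against 11.2% of all genes, and 3 were lower, *Tomm40*, *Timm44* and *Timm50*, against 9.43% of all genes. DESeq2 without a block called *Tomm7* higher (4.67% of all genes) and *Tomm40* and *Timm44* lower (5.75% of all genes). In the block fit the shares called were 1 and 3 of 30 genes, near or below those of all genes, so the calls are given gene by gene. Fits with the block that left out 1 number were added after seeing the data. *Tomm7* was called in each of these 4 fits, against 8.07%, 9.03%, 5.14% and 10.9% of all genes called higher without numbers 1 to 4. *Tomm40* was called without number 2 (1 import gene lower, against 8.2% of all genes) or number 4, and *Timm44* and *Timm50* only without number 4, when 8 import genes were lower (these 3 and *Timm23*, *Timm17a*, *Grpel1*, *Mtx1* and *Tomm5*), against 8.48% of all genes. With the block and the trend on gene length and GC content removed, 1 import gene was higher and 7 were lower, against 10.1% and 13.2% of all genes. For 3 genes, *Tomm40*, *Timm44* and *Pmpca*, every IOX5 sample lay below every DMSO sample, against 8.3% of all genes, and for 1, *Tomm7*, every IOX5 sample lay above, against 5.98% of all genes. Compared within replicate numbers, 10 genes were lower with IOX5 in all 4 pairs, 10 in 3 pairs, 6 in 2, 3 in 1, and *Tomm7* in none. Of all genes tested, 19.8% were lower and 21.3% higher in all 4 pairs.

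**Figure D2:**
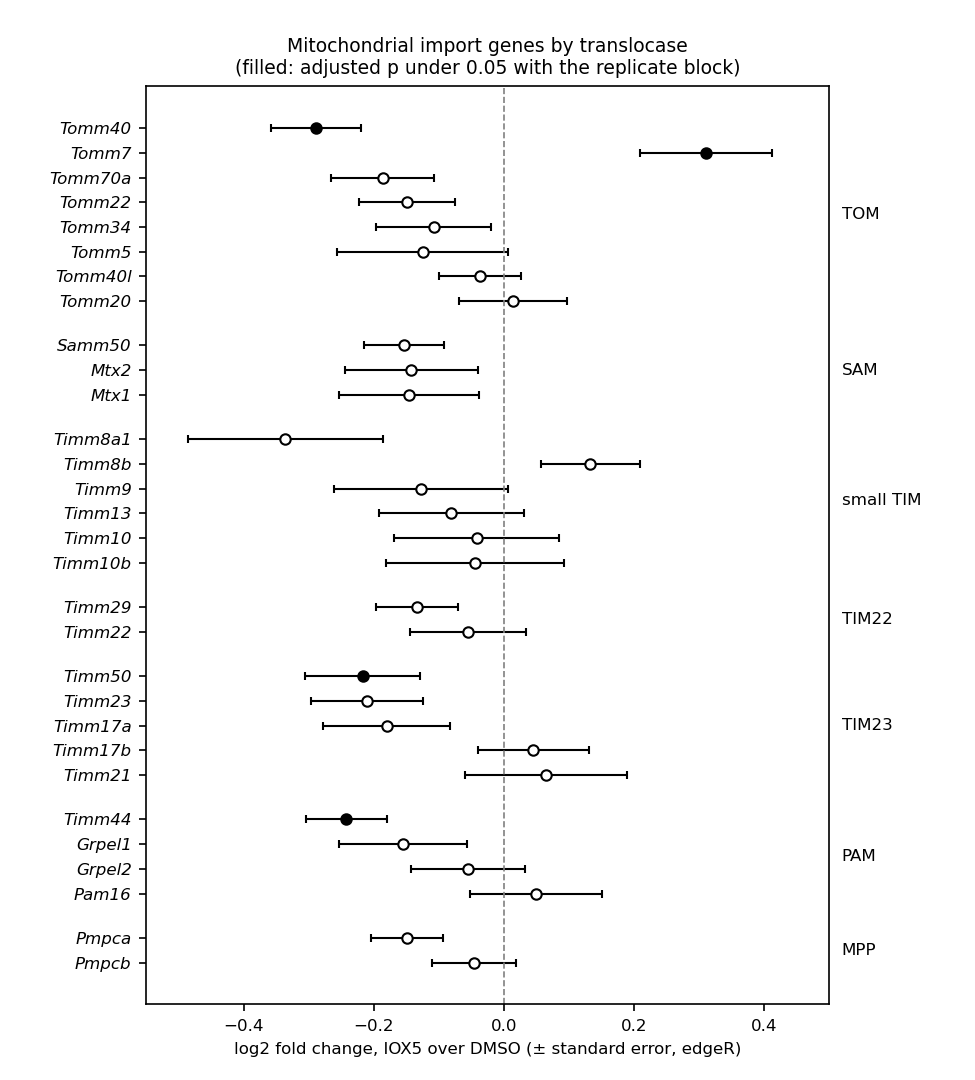
Log2 fold change of IOX5 over DMSO for the 30 tested import genes, grouped by translocase, with its standard error from edgeR without a block (8 samples). Filled points mark *Tomm40*, *Timm50*, *Timm44* and *Tomm7*, which passed an adjusted p of 0.05 with the replicate block, and 24 of the 30 points lie below 0.

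In the TOM complex the channel and the small subunit *Tomm7* had values of opposite sign. *Tomm40* (ENSMUSG00000002984; GRCm38 chromosome 7, 19701313 to 19715438), the pore that nearly all imported precursors use, was at 161, 169.6, 154 and 158 CPM with DMSO and 127, 127, 125 and 147 CPM with IOX5 in replicates 1 to 4. The groups did not overlap, and IOX5 replicate 4 stood above the other 3 IOX5 samples. The log2 fold change was -0.29 ± 0.069 (SE, edgeR adjusted p = 0.0669, and 0.010 with the replicate block). Without IOX5 replicate 4, *Tomm40* was called without the block as well, with a log2 fold change of -0.35 (2.64% of all genes were lower in that fit). *Tomm7* (ENSMUSG00000028998; GRCm38 chromosome 5, 23838944 to 23844161), which stabilizes the complex and is known for its part in the PINK1 pathway of mitophagy, was at 101, 102, 106 and 109 CPM with DMSO and 119, 116, 124 and 159 CPM with IOX5. All IOX5 samples were above all DMSO samples, with replicate 4 highest in both groups. Its log2 fold change was 0.31 ± 0.10 (SE, edgeR adjusted p = 0.137, and 0.0107 with the block). With the block and the trend on gene length and GC content removed together, it was 0.22 (adjusted p = 0.0213 by edgeR). Without IOX5 replicate 4 the log2 fold change without a block was 0.20.

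**Figure D3:**
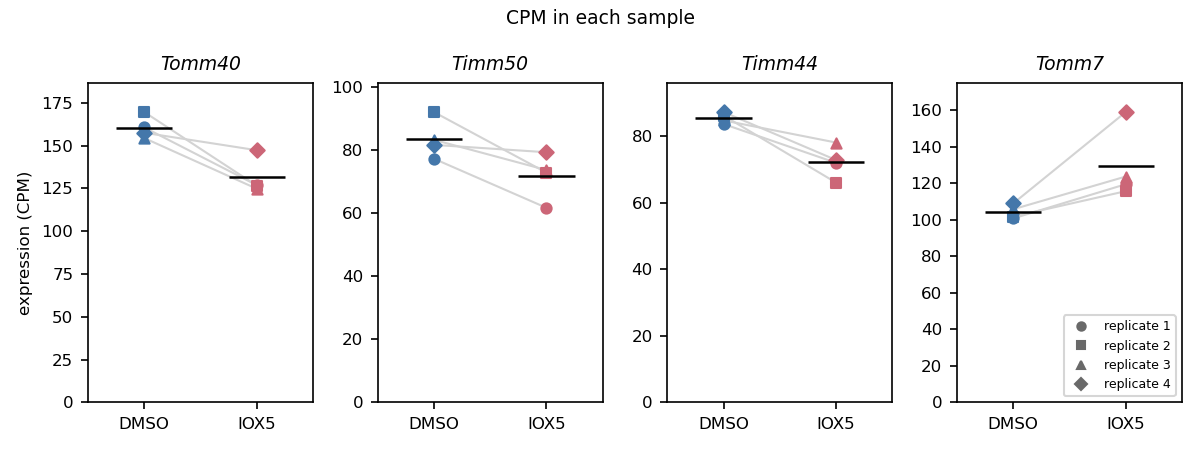
CPM of *Tomm40*, *Timm50*, *Timm44* and *Tomm7* in each of the 4 DMSO and 4 IOX5 samples, with a line joining samples of the same replicate number and a bar at each group mean. *Tomm40*, *Timm50* and *Timm44* are lower with IOX5 in all 4 pairs and *Tomm7* is higher in all 4.

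The receptors of the TOM complex did not pass the test with or without the block, but *Tomm22* was lower with the block and the trend on gene length and GC content removed (log2 fold change -0.21, edgeR adjusted p = 0.0287). *Tomm70a*, the receptor for metabolite carriers, went from 267 ± 14.7 CPM (SD, n = 4) to 234 ± 22.3 CPM (SD, n = 4), or -0.19 on the log2 scale (edgeR adjusted p = 0.231, and 0.0639 with the block). Without the block *Tomm22*, the central receptor, had a log2 fold change of -0.15 and *Tomm20*, the presequence receptor, of 0.014. The cytosolic co-chaperone *Tomm34* was at -0.11 and the small subunit *Tomm5* at -0.12. The second channel gene, *Tomm40l*, was at 45.6, 45.2, 43.5 and 45.3 CPM with DMSO and 42.7, 40.8, 45.1 and 46.7 CPM with IOX5 in replicates 1 to 4. Its groups overlapped and its log2 fold change was -0.036 (adjusted p = 0.792 by edgeR). Leaving out 1 sample at a time moved this value between -0.068 and -0.0032.

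The 3 genes of the SAM complex all had values below 0, between -0.15 and -0.14 on the log2 scale, and none passed the test with or without the block. *Mtx1* was called lower with the block and number 4 left out, a fit added after seeing the data. In that fit 8.48% of all genes were lower. *Samm50* (ENSMUSG00000022437; GRCm38 chromosome 15, 84192241 to 84217267), its core, was at 209.6, 214, 195 and 199.7 CPM with DMSO and 186, 179.7, 173 and 198 CPM with IOX5 in replicates 1 to 4. IOX5 replicate 4 lay within the DMSO range and the other 3 IOX5 samples below it (log2 fold change -0.15, adjusted p = 0.211 by edgeR, 0.107 with the block). The metaxins, which face the cytosol, were less even. *Mtx1* was at 46.2, 47.8, 45.7 and 48.3 CPM with DMSO and 38.4, 38.5, 40.0 and 53.1 CPM with IOX5, and *Mtx2* at 55.2, 60.4, 50.1 and 53.0 CPM with DMSO and 53.8, 51.3, 40.4 and 52.6 CPM with IOX5. The highest IOX5 value of *Mtx1* was that of replicate 4, above all DMSO samples, and the lowest of *Mtx2* was that of replicate 3. The log2 fold change of *Mtx1* lay between -0.27 without IOX5 replicate 4 and -0.100 without IOX5 replicate 1. For *Mtx2* it lay between -0.18 without IOX5 replicate 1 and -0.056 without IOX5 replicate 3. The adjusted p by edgeR was 0.492 for *Mtx1* and 0.476 for *Mtx2*. The 3 VDAC genes, whose barrel proteins are clients of SAM, had a median log2 fold change of -0.17. *Vdac2* was at -0.21 (edgeR adjusted p = 0.138, and 0.0339 with the block). *Vdac1* was at -0.17 (edgeR adjusted p = 0.231, and 0.082 with the block). With the block and the trend on gene length and GC content removed, *Vdac1* was called lower (-0.24, edgeR adjusted p = 0.0200).

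Of the 6 small TIM genes tested, 0 passed with or without the block (0 at an unadjusted p under 0.05 without it). With the block and the trend on gene length and GC content removed, *Timm8a1* (log2 fold change -0.43, edgeR adjusted p = 0.0291) and *Timm13* (-0.24, 0.0297) were lower. Without the block their median was -0.062. It ranged from -0.16 without IOX5 replicate 4 to -0.0059 without DMSO replicate 2, and was -0.16 with the trend on gene length and GC content removed. *Timm8a1* and *Timm8b* lay at the ends of the range. *Timm8a1*, whose human counterpart is the deafness-dystonia gene, was at 15.5, 19.99, 14.2 and 16.4 CPM with DMSO and 13.7, 11.01, 12.04 and 15.6 CPM with IOX5 in replicates 1 to 4, and *Timm8b* at 39.4, 38.8, 39.8 and 35.4 CPM with DMSO and 42.5, 44.4, 37.7 and 43.8 CPM with IOX5. The log2 fold change was -0.34 ± 0.15 (SE) for *Timm8a1* (edgeR adjusted p = 0.252, 0.0787 with the block). It was 0.13 ± 0.076 (SE) for *Timm8b* (edgeR adjusted p = 0.368), whose exons are the shortest of the 33 genes at 518 bases. The value of *Timm8b* moved to -0.031 when the trend on gene length and GC content was removed, so its direction depends on that trend. *Timm9*, *Timm10* and *Timm13*, which form the hexameric chaperones, were at -0.13, -0.042 and -0.081, and *Timm10b*, which docks the chaperone on TIM22, at -0.044.

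The carrier insertase TIM22 was represented by 2 genes. *Timm29*, an accessory subunit, was at 87.2, 93.3, 82.5 and 91.7 CPM with DMSO and 81.3, 75.8, 82.0 and 84.4 CPM with IOX5 in replicates 1 to 4, lower in all 4 pairs but with overlapping groups (log2 fold change -0.13, adjusted p = 0.275 by edgeR). *Timm22*, the insertase itself, had a log2 fold change of -0.055. Among 14 carrier genes that stand for clients of TIM22, 1 was called higher and 1 lower without the block, against 0.774% and 1.25% of all genes. In the block fit 1 was higher and 4 were lower, against 11.2% and 9.43% of all genes. *Slc25a20*, the carnitine-acylcarnitine carrier, rose from 18.4 ± 1.75 CPM (SD, n = 4) to 26.2 ± 2.39 CPM (SD, n = 4) (adjusted p = 0.0487 by edgeR). *Slc25a25*, an ATP-Mg/phosphate carrier, fell from 21.8 ± 1.002 CPM (SD, n = 4) to 16.7 ± 0.282 CPM (SD, n = 4) (adjusted p = 0.0485 by edgeR). With the block, *Slc25a10*, *Slc25a5* and *Slc25a13* were also lower, at log2 fold changes of -0.40, -0.20 and -0.26 (adjusted p = 0.00329, 0.0411 and 0.0232 by edgeR). These encode the dicarboxylate carrier, an adenine nucleotide translocase and an aspartate-glutamate carrier.

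The presequence translocase TIM23 had a median of -0.18 over 5 genes, between -0.27 without IOX5 replicate 4 and -0.13 without IOX5 replicate 1, and its subunits were split. *Timm50* (ENSMUSG00000003438; GRCm38 chromosome 7, 28305516 to 28312072), the receptor that takes precursors from TOM, was at 77.2, 92.0, 83.2 and 81.6 CPM with DMSO and 61.7, 72.8, 73.6 and 79.3 CPM with IOX5 in replicates 1 to 4. It was lower in all 4 pairs, and IOX5 replicate 4 lay inside the DMSO range. Its log2 fold change was -0.22 ± 0.088 (SE, edgeR adjusted p = 0.215, and 0.0399 with the block). The channel subunit *Timm23* had a similar value, -0.21, and its adjusted p by edgeR was 0.0524 with the block. It was called lower with the trend on gene length and GC content removed as well (log2 fold change -0.29, edgeR adjusted p = 0.00812). The fit with the block and number 4 left out, added after seeing the data, also called it, with 8.48% of all genes lower. *Timm17a*, the other channel partner, was at 80.7, 93.3, 81.7 and 82.7 CPM with DMSO and 66.3, 71.6, 71.8 and 89.1 CPM with IOX5, and its paralog *Timm17b* at 32.8, 33.5, 31.7 and 29.6 CPM with DMSO and 35.1, 30.9, 30.1 and 35.6 CPM with IOX5. IOX5 replicates 1 to 3 of *Timm17a* lay below all DMSO samples and replicate 4 within them, whereas the groups of *Timm17b* overlapped and its direction turned, to -0.024, with the trend on gene length and GC content removed. The log2 fold changes without the block were -0.18 (adjusted p = 0.342 by edgeR) and 0.046 (0.804). Leaving out 1 sample at a time moved *Timm17a* between -0.28 and -0.13 and *Timm17b* between 0.0048 and 0.086. *Timm21*, which couples TIM23 to TOM and to the respiratory chain, had a log2 fold change of 0.065.

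In the PAM motor, *Timm44* (ENSMUSG00000002949; GRCm38 chromosome 8, 4259731 to 4275913), which tethers the motor to the channel, was at 83.6, 86.1, 84.7 and 87.2 CPM with DMSO and 71.9, 66.0, 78.0 and 72.8 CPM with IOX5 in replicates 1 to 4. The DMSO samples were close together and all IOX5 samples lay below them. The log2 fold change was -0.24 ± 0.062 (SE, edgeR adjusted p = 0.0773, and 0.0206 with the block), and leaving out 1 sample at a time moved it between -0.28 and -0.20. The nucleotide exchange factors of the motor did not pass the test with or without the block. *Grpel1* was called lower with the block and number 4 left out, a fit added after seeing the data. In that fit 8.48% of all genes were lower. *Grpel1* was at 86.1, 102, 91.5 and 86.6 CPM with DMSO and 72.2, 82.7, 78.1 and 96.4 CPM with IOX5 and *Grpel2* at 37.8, 34.5, 41.9 and 39.2 CPM with DMSO and 37.5, 32.6, 39.0 and 38.6 CPM with IOX5. In *Grpel1* the lowest IOX5 sample was replicate 1 and the highest, replicate 4, lay inside the DMSO range, with the log2 fold change between -0.24 without it and -0.097 without IOX5 replicate 1. In *Grpel2*, which was lower in all 4 pairs, the groups overlapped, with IOX5 replicate 2 below all DMSO samples and DMSO replicate 3 above all IOX5 samples. *Pam16*, which regulates the motor, had a log2 fold change of 0.049, which turned to -0.029 with the block and the trend on gene length and GC content removed. The chaperone that drives the motor, *Hspa9* (mortalin), went from 943 ± 53.1 CPM (SD, n = 4) to 775 ± 85.3 CPM (SD, n = 4), lower in all 4 pairs (edgeR adjusted p = 0.113, and 0.0147 with the block).

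The processing peptidase MPP was represented by both of its subunits. *Pmpca* (ENSMUSG00000026926; GRCm38 chromosome 2, 26389339 to 26397122), the substrate-binding subunit, was at 194, 183, 183 and 174 CPM with DMSO and 171, 158, 166 and 168 CPM with IOX5 in replicates 1 to 4, and *Pmpcb*, the catalytic subunit, at 67.6, 71.3, 67.8 and 62.1 CPM with DMSO and 60.8, 65.5, 65.6 and 68.7 CPM with IOX5. All IOX5 samples of *Pmpca* lay below all DMSO samples, while those of *Pmpcb* overlapped with them. The log2 fold change of *Pmpca* was -0.15 ± 0.056 (SE, edgeR adjusted p = 0.181, 0.107 with the block), and that of *Pmpcb* was -0.045. The value of *Pmpcb* lay between -0.072 without IOX5 replicate 4 and -0.013 without IOX5 replicate 1.

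Within-sample ratios of related genes, which need no scaling between libraries, were compared for 6 pairs. The log2 ratio of *Tomm40* over *Tomm40l* was 1.83 ± 0.0491 with DMSO and 1.58 ± 0.0850 with IOX5 (SD, n = 4 each), a difference of -0.25 with no overlap between the groups (two-sided, exact permutation p = 0.0286, the least that 4 samples against 4 can give, and 0.0857 adjusted over the 6 pairs). That of *Timm8a1* over *Timm8b* was -1.22 ± 0.235 with DMSO and -1.68 ± 0.221 with IOX5 (SD, n = 4 each), a difference of -0.47, also without overlap (exact permutation p = 0.0286, adjusted 0.0857). These groups were only just apart, with DMSO replicate 3 at -1.475 and IOX5 replicate 4 at -1.479. *Timm8a1* had 124 to 257 reads per sample, so the lack of overlap in this pair is uncertain. For *Timm17a* over *Timm17b* the difference was -0.23 (exact permutation p = 0.0571, adjusted 0.114), lower in all 4 pairs of samples but with overlapping groups. The differences were -0.10 for *Pmpca* over *Pmpcb*, -0.10 for *Grpel1* over *Grpel2* and -0.011 for *Mtx1* over *Mtx2* (exact permutation p = 0.143, 0.514 and 0.886), lower in 4, 3 and 2 of the 4 pairs of samples. The last 2 turned sign when 1 sample was left out, to 0.0010 for *Grpel1* over *Grpel2* without DMSO replicate 2 and to 0.075 for *Mtx1* over *Mtx2* without IOX5 replicate 1, and the difference for *Timm17a* over *Timm17b* was -0.14 without IOX5 replicate 1. After adjustment none of the 6 passed 0.05. The test takes all 70 assignments of the samples and leaves the replicate numbers aside, since an exact permutation within 4 pairs cannot go below p = 0.125.

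**Figure D4:**
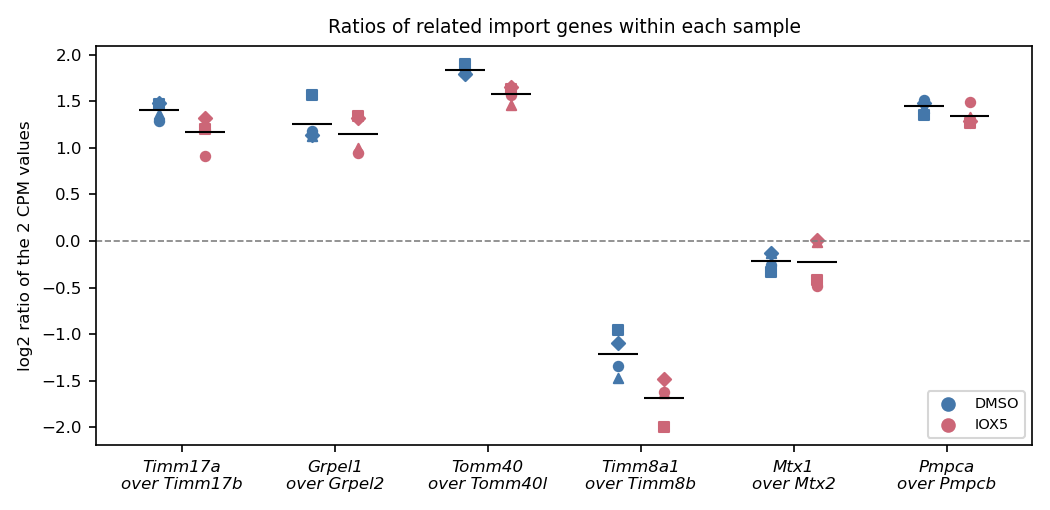
Log2 ratio of the CPM values of 2 related import genes within each sample, for 6 pairs, with a bar at each group mean (4 DMSO samples in blue, 4 IOX5 samples in red, marker shape by replicate number). The groups do not overlap for *Tomm40* over *Tomm40l* and overlap for 4 other pairs. For *Timm8a1* over *Timm8b* they are only just apart (DMSO replicate 3 at -1.475, IOX5 replicate 4 at -1.479).

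The samples of the IOX5 group were not alike for these genes. IOX5 replicate 4 held the highest of the 4 IOX5 values for 22 of the 30 genes and the lowest for 1, whereas it held the highest for 26.4% of all genes tested. Relative to the mean of the DMSO samples, the median of the import genes was -0.15, -0.19 and -0.12 on the log2 scale in IOX5 replicates 1 to 3 and 0.052 in replicate 4. In the DMSO samples it ran from -0.042 to 0.078, with replicate 2 highest. Over all genes tested the same median lay between -0.0081 and 0.012 in every sample. The median log2 fold change of the import genes was -0.16 without IOX5 replicate 4 and -0.089 without IOX5 replicate 2. With the replicate block it was -0.14, and -0.061 when number 2 was left out. IOX5 replicate 4 also had the largest share of reads that mapped to more than 1 place, 9.999% of the reads listed against 9.15% to 9.79% in the other 3 IOX5 samples, and the part of this in the import genes was not tested.

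**Figure D5:**
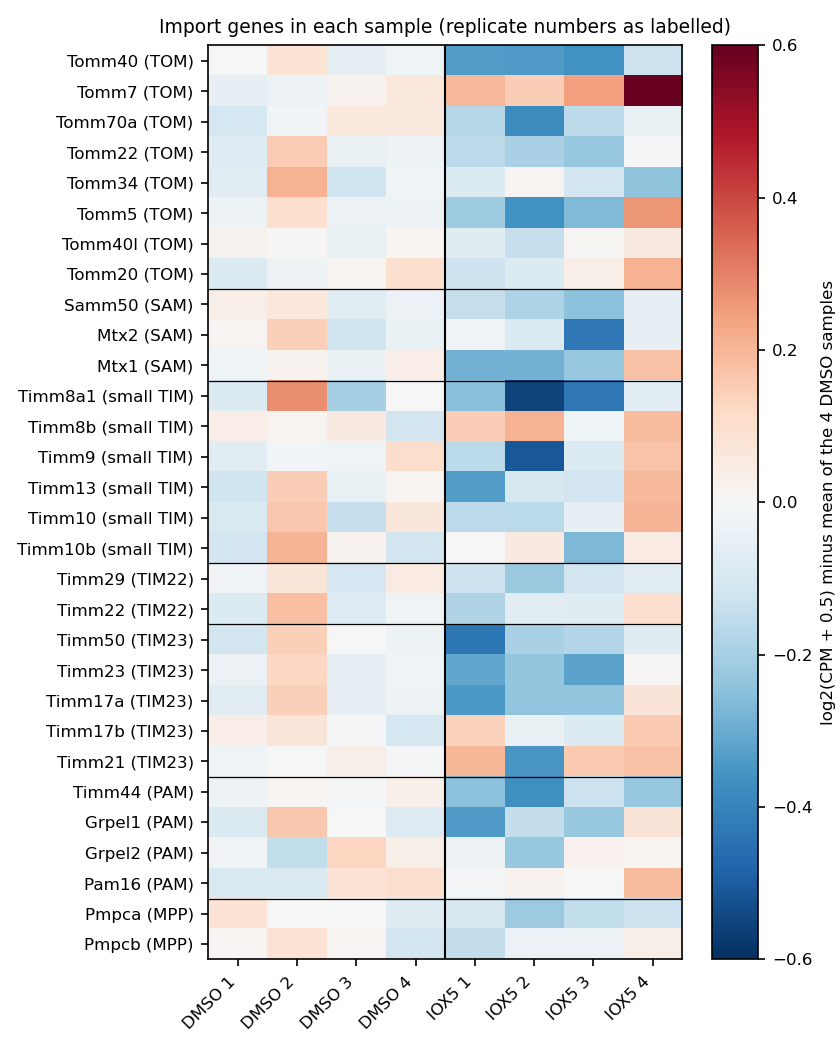
Log2(CPM + 0.5) of each of the 30 tested import genes in each sample, minus the mean of the 4 DMSO samples, with genes grouped by translocase. IOX5 replicates 1 to 3 are mostly blue (lower), and replicate 4 holds the highest IOX5 value for 22 of the 30 genes.

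The wider set of genes that serve import was examined in the same fits, with lists chosen by function. Of the 10 cytosolic chaperones and ubiquilins that keep precursors unfolded, 9 had values below 0, with a median log2 fold change of -0.19. Without the block 0 were called, with 7 lower at an unadjusted p under 0.05 by edgeR, against 11.2% of all genes. With it 5 were called, all lower, against 9.43% of all genes. The 5 were *Hspa8*, the constitutive HSP70 (-0.29), *Hsp90aa1* (-0.29) and *Hsp90ab1* (-0.26), which are cytosolic HSP90 genes, the HSP40 *Dnaja2* (-0.21) and the ubiquilin *Ubqln4* (-0.23), with adjusted p between 0.0162 and 0.042 by edgeR with the block. *Ubqln1* was at -0.18 (edgeR adjusted p = 0.144, and 0.0653 with the block). With the trend on gene length and GC content removed as well, *Ubqln1* and *Ubqln2* were called lower (edgeR adjusted p = 0.0431 and 0.0448). In that fit 13.2% of all genes were lower. The HSP70 and HSP90 genes have similar copies in the genome, so their levels are uncertain. Of 14 matrix chaperones and inner-membrane proteases, 12 were below 0 (median -0.087) and 2 were lower with the block, against the same 9.43%. These were *Hspd1*, the matrix chaperonin that folds imported proteins, from 900.4 ± 88.3 CPM (SD, n = 4) to 671 ± 96.2 CPM (SD, n = 4) (adjusted p = 0.0799 by edgeR, 0.00425 with the block), and the prohibitin *Phb2* (log2 fold change -0.26, adjusted p = 0.0249 by edgeR with the block). In both, IOX5 replicate 4 overlapped with the DMSO samples.

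A list of 20 further import genes (insertases, presequence proteases, redox import factors) was more even, with 12 below 0 and a median of -0.032 (-0.052 without IOX5 replicate 4). With the block *Hspa9* was lower and *Immp1l*, an inner-membrane peptidase subunit, was higher (log2 fold change 0.27, adjusted p = 0.049 by edgeR with the block, and 0.0626 with the trend on gene length and GC content removed as well, which ends the call). Of 11 genes for cristae organization, 7 were below 0 and none passed with or without the block. In *Apoo* (log2 fold change -0.34, adjusted p = 0.181 by edgeR) and *Opa1* (-0.12, 0.217) all IOX5 samples lay below all DMSO samples. *Apoo* was called lower with the block and the trend removed together (log2 fold change -0.41, edgeR adjusted p = 0.0303).

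Of 7 mitophagy receptors and regulators, 5 had values above 0, and 2 were called higher without the block, against 0.774% of all genes. With it 3 were higher and 1 lower (*Phb2*), where 11.2% and 9.43% of all genes were called. *Bnip3*, a known HIF-1 target, rose from 105 ± 30.4 CPM (SD, n = 4) to 207 ± 14.6 CPM (SD, n = 4) (log2 fold change 0.98, adjusted p = 0.0469 by edgeR). *Bnip3l*, its relative, rose from 101 ± 17.0 CPM (SD, n = 4) to 158 ± 18.1 CPM (SD, n = 4) (log2 fold change 0.65, adjusted p = 0.046 by edgeR). For both, all IOX5 samples were above all DMSO samples. Calls without the block, those of *Bnip3*, *Bnip3l*, *Slc25a20* and *Slc25a25* included, fell to 0 of all genes when DMSO replicate 3, DMSO replicate 4 or IOX5 replicate 3 was left out (1969, 1846 and 2111 genes at an unadjusted p under 0.05 by edgeR). With the block and all samples, the adjusted p by edgeR of these 4 genes was 2.24e-04, 8.09e-05, 0.00172 and 0.0098. *Pink1*, whose kinase is held at the TOM complex of damaged mitochondria, was at 48.5, 33.4, 70.8 and 66.5 CPM with DMSO and 70.6, 51.9, 102 and 87.3 CPM with IOX5 in replicates 1 to 4. It was higher with IOX5 in each pair, and its values followed the replicate number in both groups (edgeR adjusted p = 0.321, and 3.10e-04 with the block).

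The 77 tested genes for mitochondrial ribosomal proteins had a median log2 fold change of -0.075 with 76.6% below 0, and -0.13 without IOX5 replicate 4. Of these, 0 were called without the block. At an unadjusted p under 0.05 by edgeR, 0 were higher and 5 lower, against 8.98% and 11.2% of all genes. With the block 1 was lower, against 9.43% of all genes. The 77 tested nuclear genes of the respiratory chain had a median of 0.038 with 35.1% below 0, but of -0.025 without IOX5 replicate 4, so the sign of that median rests on 1 sample. Of these, 1 was higher without the block, against 0.774% of all genes. With it 13 were higher and 1 lower, against 11.2% and 9.43% of all genes. The 10 tested mitochondrially encoded mRNAs had a median of 0.19 and summed to 11876 ± 563 CPM with DMSO and 13220 ± 591 CPM with IOX5 (SD, n = 4 each, over the 13 genes listed). Without the block 0 of the 10 were called, with 3 higher at an unadjusted p under 0.05 by edgeR, against 8.98% of all genes. In the block fit 3 were higher, against 11.2% of all genes. The differences between these lists and the import genes were not tested.

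Promoters are shown for the 3 import genes that were lower with the block, as the 250 bases before the transcription start in RefSeq (GRCm38.p6), 5′ to 3′ on the strand of the gene, which is the minus strand for each. Capitals mark CCAAT on either strand, the letters bound by NF-Y and the one element searched that all 3 share. The windows are chr7:19715430-19715679 for *Tomm40*, chr8:4275906-4276155 for *Timm44* and chr7:28312047-28312296 for *Timm50*.
Tomm40: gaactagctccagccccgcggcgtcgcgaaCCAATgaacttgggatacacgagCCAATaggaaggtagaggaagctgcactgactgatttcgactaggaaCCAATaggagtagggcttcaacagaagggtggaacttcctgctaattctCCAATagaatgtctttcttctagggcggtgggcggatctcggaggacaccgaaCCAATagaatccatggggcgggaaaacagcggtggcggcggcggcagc
Timm44: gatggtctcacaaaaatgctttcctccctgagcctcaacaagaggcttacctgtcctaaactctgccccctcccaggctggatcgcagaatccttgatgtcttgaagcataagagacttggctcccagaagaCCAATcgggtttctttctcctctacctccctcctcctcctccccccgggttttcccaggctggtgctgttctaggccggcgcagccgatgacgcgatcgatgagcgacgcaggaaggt
Timm50: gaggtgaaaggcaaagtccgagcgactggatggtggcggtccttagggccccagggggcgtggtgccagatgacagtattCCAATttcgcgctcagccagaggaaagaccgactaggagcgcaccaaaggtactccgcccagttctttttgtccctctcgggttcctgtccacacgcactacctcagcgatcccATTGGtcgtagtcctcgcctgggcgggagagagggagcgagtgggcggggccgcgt

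The *Tomm40* window holds CCAAT at 5 places, the *Timm50* window at 2 and the *Timm44* window at 1. Over windows of 300 bases, 250 before to 50 after the start, 29 of the 33 import genes had an entry, and CCAAT stood in 31.0% of them against 41.1% of 27025 genes with such a window. ACGTG, the core of the HIF response element in 1 of its spellings, stood in 20.7% of the import genes and 21.8% of all, and GCGTG, the other spelling, in 51.7% and 35.2%. CACGTG, the E-box of MYC, which contains ACGTG, stood in 17.2% and 8.09%. CCGGAAGT, an ETS and GABP element, stood in 27.6% (8 genes) and 4.31%, GCATGCGC, part of the NRF1 element, in 6.90% and 3.05%, AAGATGGC, a YY1 element, in 6.90% and 3.19%, and GGGCGGG, an SP1 element, in 27.6% and 27.9%. The 8 genes with CCGGAAGT were *Mtx2*, *Pmpcb*, *Timm10*, *Timm10b*, *Timm23*, *Timm29*, *Timm8a2* and *Tomm70a*, and of those tested none was called with or without the block, while *Timm23* was called in the further block fits given above. All letters were searched on both strands, and a match is a description of the sequence only. The 27025 genes were not matched to the import genes for expression or GC content, so the shares are not like for like.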

How the data were processed

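RNA was sequenced from 4 DMSO and 4 IOX5 samples, grouped by their treatment labels. Per the labels, the submitters' processing notes name cutadapt 1.18, HISAT2 2.2.1 and HTSeq 2.0.1. The authors deposited raw counts per gene of reads mapped to GRCm38. The study's methods name a release for the HISAT2 index, but not for the annotation used in counting. Of 54838 gene IDs, 54809 matched GENCODE M21 (GRCm38), which gave names, positions and exon lengths. Summary lines of unassigned reads (20.65% to 22.56% of a file) were left out of totals.

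Genes were filtered with filterByExpr and tested with edgeR 4.0.16 (TMM factors 0.988 to 1.03, quasi-likelihood test, R 4.3.3) on all 12405 genes kept, and p-values were Benjamini-Hochberg adjusted with a threshold of 0.05. CPM uses TMM-scaled totals. DESeq2 1.42.0 and limma 3.58.1 were alternatives, as were other factors, filters, a length and GC trend, the replicate block and each sample left out. The tests were also run on counts simulated from the means, totals and common variation of these data. The simulation held no effect of the replicate number, so it cannot judge the block. Deviations from the group means correlated at 0.758, 0.744, 0.732 and 0.636 between samples of the same number, so the numbers were taken to pair them, although DMSO replicate 4 correlated at 0.685 with IOX5 replicate 3. The common biological coefficient of variation was 0.202, and 0.0794 with the block. Ratios of related genes used an exact two-sided permutation test over samples.

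The genes described and the lists were chosen with earlier results of these data known. Values in every sample are given for import genes called with or without the block, for the one with the smallest p in each complex and for both genes of each related pair, and in the other lists of the pathway the genes called and the pair with the smallest p are named. Properties of the encoded proteins were not computed here.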

Additional observations from a re-analysis of the deposited data

Results flagged for a closer look

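In 8 of 60 groups of 4 samples, 1 sample stood apart from the other 3 by more than Dixon's 95% critical value, where chance gives about 1 in 20 groups. Among the IOX5 samples, replicate 4 was high for *Tomm40* (147 CPM, the others 124.8 to 126.9), *Mtx1* (53.1 CPM, the others 38.4 to 40.0) and *Pam16* (16.8 CPM, the others 14.6 to 14.9). IOX5 replicate 3 was low for *Mtx2* (40.4 CPM, the others 51.3 to 53.8) and *Timm10b* (7.43 CPM, the others 9.05 to 9.41), and IOX5 replicate 2 was low for *Timm21* (21.2 CPM, the others 30.3 to 31.3). Among the DMSO samples, replicate 2 was high for *Tomm5* (56.1 CPM, the others 51.0 to 51.1) and *Timm17a* (93.3 CPM, the others 80.7 to 82.7).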

How the results depend on the processing

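Without the block, 96 genes were called higher and 155 lower of all genes, and 0 and 0 of the import genes. The numbers were 489 and 602 with DESeq2 (import genes 1 and 2), 426 and 610 with limma voom (0 and 1), 79 and 73 with no filter on low counts, and 332 and 486 at an adjusted p under 0.1 (0 and 2). With the replicate block they were 1394 and 1170 (1 and 3), and 1250 and 1636 with the length and GC trend removed as well (1 and 7). With the block and number 1, 2, 3 or 4 left out, a choice made after seeing the data, they were 994 and 650 (1 and 0), 1119 and 1016 (1 and 1), 642 and 403 (1 and 0), and 1355 and 1058 (1 and 8). Leaving out 1 sample without the block gave 0 to 130 higher and 0 to 333 lower (import genes 0 higher and 0 to 1 lower), with the highest counts without IOX5 replicate 4. The cause of these shifts was not tested. The median of the import genes stayed below 0, between -0.165 and -0.089 when 1 sample was left out, and at -0.061 with the block and number 2 left out. The group with the lowest median differed between fits, as with the length and GC trend removed SAM (-0.198) lay below TIM23 (-0.149). *Timm8b* turned to -0.031 with the length and GC trend removed and -0.030 with the block as well, and *Timm17b* to -0.024 and -0.025, and to -0.027 with the block and number 4 left out. At 11351507 to 14116054 reads a sample, *Tomm20l* and *Timm8a2* could not be tested.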
